A study of Mus musculus with 6 samples.

Results

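The genes described here encode peptidases that sit at the cell surface and trim peptide hormones, kinins, neuropeptides and chemokines outside the cell. They are 8 listed genes, Enpep, Anpep, Dpp4, Mme, Ace, Cpd, Cpm and Lnpep, and all but Lnpep are among the 22180 genes that the array measured through a probe set with exactly 1 gene symbol. A probe set is the group of array probes that report a transcript together. The brightest such probe set was to stand for each gene, but 7 of the 8 genes had 1 such probe set and Lnpep had none, so that the mean signal made no choice among them. Lnpep, the insulin-regulated aminopeptidase that degrades oxytocin, was not analysed here. The members were chosen by name, with results of these data known, among them the lower log2 signal of Enpep in CX3CR1high cells. The p-values below therefore say where a gene stands among all genes tested and are not independent evidence.

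The study took digested ear skin from 2-week-old mice and sorted its macrophages into CX3CR1high, CX3CR1int (intermediate) and CX3CR1low subsets and measured their RNA on Affymetrix arrays. All mice were of the C57Bl/6 strain with the genotype Cx3cr1+/gfp, in which the gene of green fluorescent protein replaces a single copy of Cx3cr1, the fractalkine receptor gene, so that every subset carried the same reduced dose of the receptor gene. Each subset had 2 samples from 2 independent litters, with 4 mice pooled in a sample. The sample titles call the CX3CR1high cells bright, and the gate boundaries were not given in the sources used here.

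Values are log2 signals after robust multi-array averaging, so that a difference of 1 is a factor of 2. A change was called at an adjusted p below 0.05 in limma, with Benjamini-Hochberg adjustment over the 15529 genes whose mean signal reached 4.335, the 30th percentile of all genes. The 6 arrays had medians of 4.84 to 4.94. Cx3cr1 averaged 10.03 in CX3CR1high, 6.95 in CX3CR1int and 6.44 in CX3CR1low samples. Its CX3CR1int samples (7.05 and 6.84) and CX3CR1low samples (5.87 and 7.01) overlapped. All 10 macrophage markers listed, among them Adgre1, Csf1r and Cd68, reached the level of 4.335, and their mean signal lay between 10.4 and 10.7 in every sample. Of these markers 8 were lower in value in CX3CR1high than in CX3CR1low cells (median difference -0.14) and 0 were called in limma, but Cd163, a scavenger receptor gene, differed by -0.905 (adjusted p = 0.0829) and was called with the replicate number as a block in the model (adjusted p = 0.0305, beside 0.502% of all genes called lower with it). These are bulk samples of sorted cells, so that fewer cells expressing a gene and less RNA per cell cannot be told apart.

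As background, cell surface peptidases cut peptides outside the cell, and a cut can activate a peptide, change which receptor it fits or destroy it. Angiotensin-converting enzyme produces angiotensin II, aminopeptidase A shortens it to angiotensin III, and aminopeptidase N shortens that further. Neprilysin, dipeptidyl peptidase and the basic carboxypeptidases act in the same way on substance P, kinins, chemokines and complement anaphylatoxins. On myeloid cells aminopeptidase N is the long-known surface antigen CD13, and several of these enzymes are also abundant on fibroblasts, pericytes and epithelia.

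Both aminopeptidase genes fell in CX3CR1high cells against CX3CR1low cells, Enpep 5.86-fold and Anpep 3.24-fold. The carboxypeptidase gene Cpd differed the other way, and the intervals of Mme, Ace and Cpm spanned 0. Of the 6 members tested, 2 were called, both lower, beside 0.187% of all genes tested that were called lower in this comparison and 0.399% called in either direction. In this comparison the subsets did not overlap for 3 of the 6, Enpep and Anpep lower and Cpd higher, beside 38.3% of all genes tested, so that the absence of overlap says little with 2 samples a subset.

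**Figure D1:**
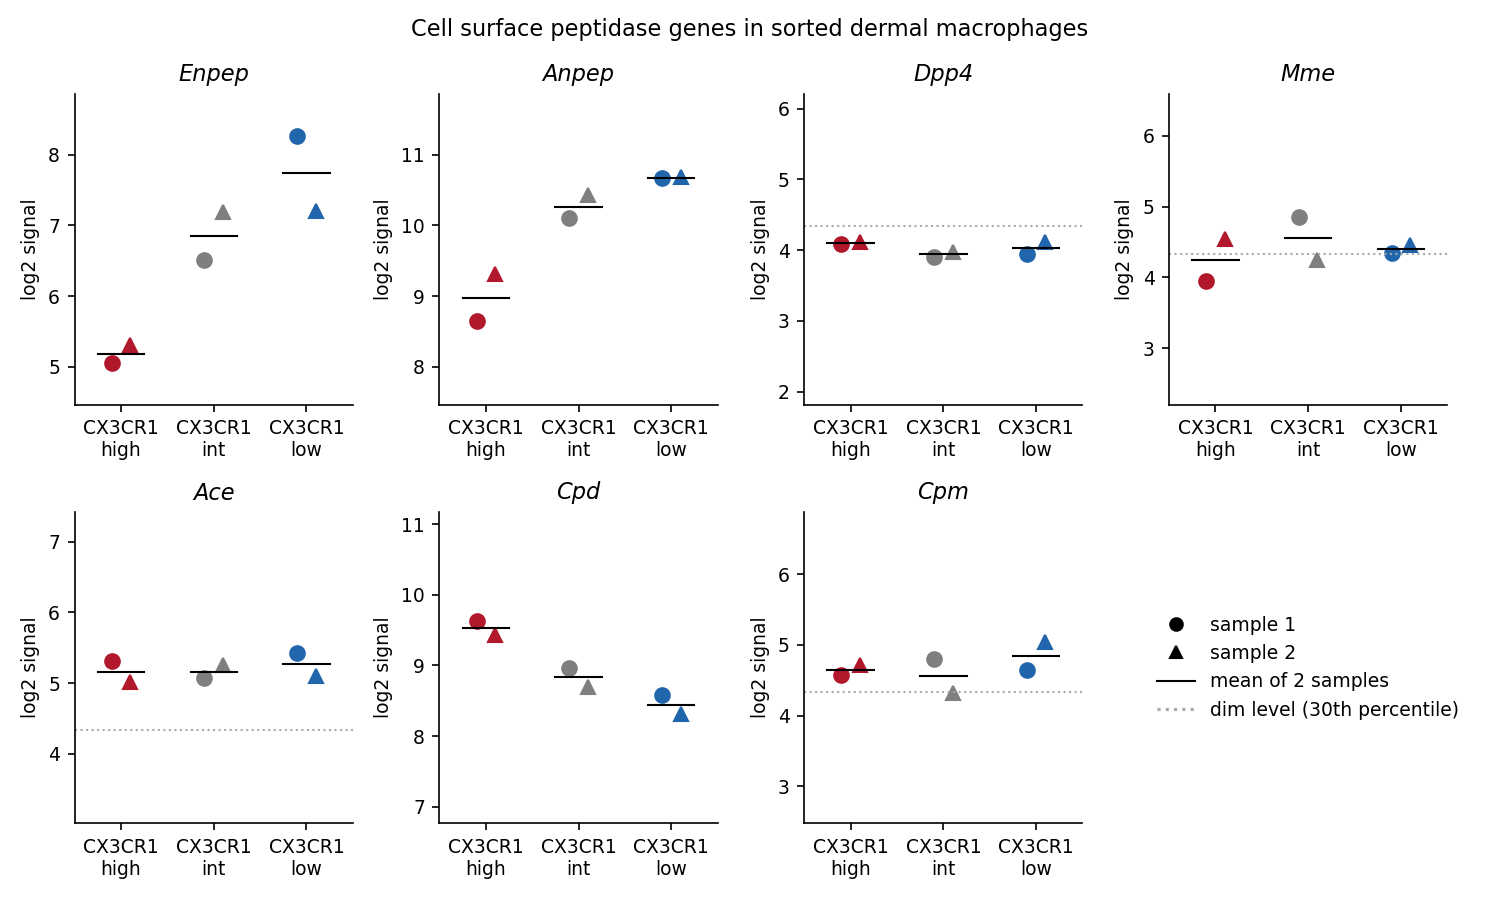
Log2 signal of the 7 measured peptidase genes in each sample, with circles for sample 1, triangles for sample 2, black bars for subset means and the dotted line at 4.335, the level under which a gene counted as dim. All panels span the same number of log2 units. Enpep and Anpep are lowest in the CX3CR1high samples, Cpd is highest there, and Dpp4 lies below the dotted line in all 6 samples.

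Enpep encodes aminopeptidase A, which removes an acidic residue from the start of a peptide and turns angiotensin II into angiotensin III. Its log2 signal (probe set 17410251) was 5.06 and 5.31 in CX3CR1high samples, 6.51 and 7.19 in CX3CR1int samples, and 8.27 and 7.20 in CX3CR1low samples. The CX3CR1high samples lay below the other 4, while CX3CR1int sample 2 and CX3CR1low sample 2 were nearly equal, so that the upper end of the order rests on CX3CR1low sample 1. Enpep averaged 5.19 ± 0.18 in CX3CR1high, 6.85 ± 0.48 in CX3CR1int and 7.74 ± 0.76 in CX3CR1low samples (SD, n = 2 each). The difference of CX3CR1high minus CX3CR1low was -2.55 ± 0.35 on the log2 scale (SE, limma, adjusted p = 0.0317), with a 95% interval of -3.35 to -1.75. CX3CR1high minus CX3CR1int came to -1.665 (limma, adjusted p = 0.190), with a 95% interval of -2.46 to -0.87 before adjustment. CX3CR1int minus CX3CR1low came to -0.885 (limma, adjusted p = 0.996), and these neighbours were not told apart by the test. Sample 2 was above sample 1 by 0.25 in CX3CR1high and 0.68 in CX3CR1int cells but below it by 1.07 log2 units in CX3CR1low cells. The call ended without CX3CR1high sample 1 (adjusted p = 0.233), CX3CR1high sample 2 (0.156) or CX3CR1low sample 1 (0.0801), with differences of -2.425, -2.675 and -2.015 on the log2 scale.

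Anpep encodes aminopeptidase N, which takes neutral residues from the start of peptides, angiotensin III and enkephalins among them, and also takes part in adhesion and endocytosis of myeloid cells. Its log2 signal (probe set 17492431) was 8.65 and 9.31 in CX3CR1high samples, 10.1 and 10.43 in CX3CR1int samples, and 10.67 and 10.68 in CX3CR1low samples. Here the 3 subsets did not overlap, and the CX3CR1low samples were the closest pair. Anpep averaged 8.98 ± 0.47 in CX3CR1high, 10.27 ± 0.23 in CX3CR1int and 10.68 ± 0.01 in CX3CR1low samples (SD, n = 2 each). Its mean over all samples stood at the 98th percentile of measured genes, so that the gene remained bright in CX3CR1high cells too. The difference of CX3CR1high minus CX3CR1low was -1.695 ± 0.22 (SE, limma, adjusted p = 0.0242), with a 95% interval of -2.19 to -1.20 on the log2 scale. CX3CR1high minus CX3CR1int was -1.285, a 2.44-fold lower signal that was not called (limma, adjusted p = 0.0956) but passed with the replicate number as a block (adjusted p = 0.0261, beside 0.303% of all genes called in either direction with it). CX3CR1int minus CX3CR1low was -0.41 (limma, adjusted p = 0.996). The call against CX3CR1low cells ended without CX3CR1high sample 1 (-1.365, adjusted p = 0.157), CX3CR1low sample 1 (adjusted p = 0.104) or CX3CR1low sample 2 (adjusted p = 0.103).

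Cpd encodes carboxypeptidase D, a membrane enzyme that cycles between the trans-Golgi network and the cell surface and removes arginine or lysine from the end of a peptide. Its log2 signal (probe set 17266157) was 9.63 and 9.43 in CX3CR1high samples, 8.97 and 8.70 in CX3CR1int samples, and 8.58 and 8.31 in CX3CR1low samples. The subsets did not overlap, in the order opposite to that of Anpep. Cpd averaged 9.53 ± 0.14 in CX3CR1high, 8.84 ± 0.19 in CX3CR1int and 8.45 ± 0.19 in CX3CR1low samples (SD, n = 2 each). The difference of CX3CR1high minus CX3CR1low was 1.085 ± 0.18, or 2.12-fold (SE, limma), and missed the threshold with an adjusted p of 0.0530. It passed with the replicate block (adjusted p = 0.0188, beside 0.489% of all genes called higher and 0.992% called in either direction with it), and sample 2 lay below sample 1 by 0.20, 0.27 and 0.27 log2 units in the CX3CR1high, CX3CR1int and CX3CR1low subsets. Cpd thus stood at the edge of the threshold, and the range of its fold was 1.60 to 2.82 (95% interval). CX3CR1high minus CX3CR1int was 0.695 (limma, adjusted p = 0.322) and CX3CR1int minus CX3CR1low 0.39 (adjusted p = 0.996).

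The bases before the annotated starts of these 3 genes are shown because Enpep and Anpep differed in the same way between the subsets and Cpd the other way. Each is the 250 bases before the start, 5′ to 3′ on the strand of the gene, from RefSeq on GRCm38.p6. Capitals mark any match on either strand to a motif of 5 that were searched. The TATA box was searched as TATAAA, a motif that sets the start in many tissue-restricted genes. The GC box, which Sp family factors bind, was searched as GGGCGG. The core of the site of PU.1, a factor that macrophages need, was searched as GAGGAA. The site of AP-1, a factor of activated cells, was searched as TGANTCA. The core of the site of MAF factors, found in resident macrophages, was searched as TGCTGA. The windows are chr3:129332750-129332999, minus strand, for Enpep, chr7:79848211-79848460, minus strand, for Anpep, and chr11:76847009-76847258, minus strand, for Cpd.
Enpep: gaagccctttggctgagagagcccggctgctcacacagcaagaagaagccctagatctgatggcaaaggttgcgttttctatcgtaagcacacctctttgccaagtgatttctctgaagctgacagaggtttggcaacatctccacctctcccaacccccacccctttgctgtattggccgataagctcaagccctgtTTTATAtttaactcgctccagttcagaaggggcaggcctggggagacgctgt
Anpep: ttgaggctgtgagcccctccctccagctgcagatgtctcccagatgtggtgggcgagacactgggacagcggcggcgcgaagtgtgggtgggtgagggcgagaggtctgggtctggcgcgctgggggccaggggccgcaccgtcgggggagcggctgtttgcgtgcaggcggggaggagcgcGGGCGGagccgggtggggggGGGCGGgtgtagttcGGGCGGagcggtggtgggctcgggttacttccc
Cpd: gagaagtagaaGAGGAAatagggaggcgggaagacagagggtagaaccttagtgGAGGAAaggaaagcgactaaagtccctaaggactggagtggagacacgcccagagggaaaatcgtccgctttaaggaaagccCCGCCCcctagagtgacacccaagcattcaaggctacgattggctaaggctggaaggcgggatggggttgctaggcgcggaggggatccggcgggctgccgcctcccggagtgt

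The window of Enpep held a single match, to TATAAA on the opposite strand, with its first base 52 bases before the start, and 12.4% of all 32851 windows of this length hold that motif. The window of Anpep held 3 matches to GGGCGG, which begin 68, 48 and 33 bases before the start, and 32.7% of windows hold it. The window of Cpd held GGGCGG on the opposite strand at 114 bases and GAGGAA at 239 and 196 bases before the start, and 23.3% of windows hold GAGGAA. The AP-1 and MAF motifs, held by 6.75% and 16.1% of windows, did not occur in these 3, and no matches in them overlapped. The GC content was 52.4% in the Enpep window, 72.8% in the Anpep window and 58.4% in the Cpd window, against a median of 52.4% over all windows. CpG dinucleotides numbered 6, 23 and 14 in the Enpep, Anpep and Cpd windows. Enpep and Anpep thus had no motif of the 5 in common in these windows.

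Mme encodes neprilysin, also known as CD10, which degrades substance P, enkephalins and natriuretic peptides. Its log2 signal (probe set 17397990) was 3.95 and 4.54 in CX3CR1high samples, 4.85 and 4.25 in CX3CR1int samples, and 4.34 and 4.46 in CX3CR1low samples. The subsets overlapped, at a mean of 4.40 just above the dim level, and the CX3CR1high mean of 4.245 lay below it. CX3CR1high minus CX3CR1low was -0.155, with a 95% interval of 0.600 to 1.34 in fold (limma, adjusted p = 0.910).

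Ace encodes angiotensin-converting enzyme, which makes angiotensin II and inactivates bradykinin. Its log2 signal (probe set 17257444) was 5.31 and 5.01 in CX3CR1high samples, 5.07 and 5.25 in CX3CR1int samples, and 5.43 and 5.10 in CX3CR1low samples. All subsets overlapped, within a range of 0.42 log2 units over the 6 samples. CX3CR1high minus CX3CR1low was -0.105, with a 95% interval of 0.682 to 1.27 in fold (limma, adjusted p = 0.922), and the CX3CR1high and CX3CR1int means were equal at 5.16.

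Cpm encodes carboxypeptidase M, which is held at the membrane by a lipid anchor and removes arginine or lysine from kinins and anaphylatoxins, the same end residues as carboxypeptidase D. Its log2 signal (probe set 17237547) was 4.58 and 4.72 in CX3CR1high samples, 4.80 and 4.32 in CX3CR1int samples, and 4.64 and 5.04 in CX3CR1low samples. The subsets overlapped, unlike those of Cpd. CX3CR1high minus CX3CR1low was -0.19, with a 95% interval of 0.620 to 1.24 in fold (limma, adjusted p = 0.855). For Mme, Ace and Cpm the intervals leave room for changes of these sizes, and equal expression was not shown.

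Dpp4 encodes dipeptidyl peptidase 4, known as CD26, a serine peptidase that clips the start of incretins and chemokines such as CXCL12. Its log2 signal (probe set 17385719) was 4.08 and 4.11 in CX3CR1high samples, 3.91 and 3.97 in CX3CR1int samples, and 3.94 and 4.12 in CX3CR1low samples. All 6 values lay below 4.335, so that Dpp4 was dim throughout and was not tested. Its mean of 4.02 and that of Mme, 4.40, were the members' values just outside and just inside the level at which a gene was tested.

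**Figure D2:**
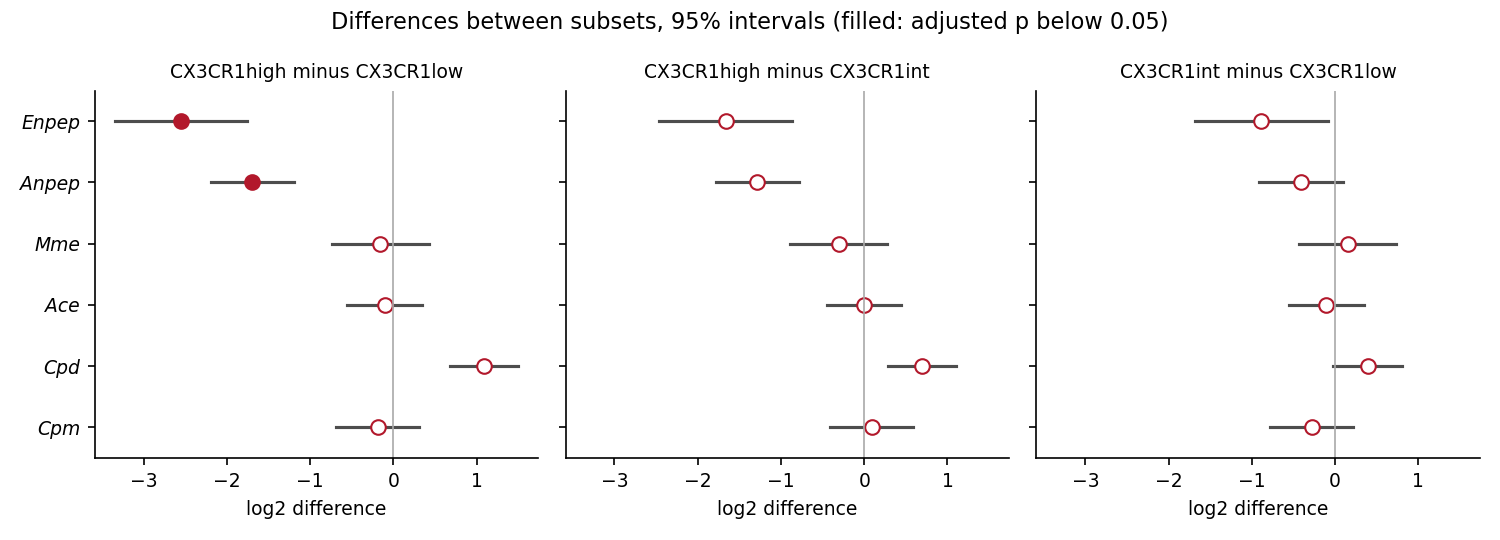
Log2 differences of the 6 tested peptidase genes in the 3 comparisons, named first minus second, with 95% intervals from limma before adjustment. Filled points were called over all genes tested. Only Enpep (-2.55) and Anpep (-1.695) in CX3CR1high minus CX3CR1low are filled, and Cpd (1.085) stands on the other side of 0.

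Against CX3CR1int cells no member was called in CX3CR1high cells (limma), where 0.142% of all genes tested were called, and 3 members, Enpep, Anpep and Cpd, had an unadjusted p below 0.05, as had 7.89% of all genes tested. Between CX3CR1int and CX3CR1low cells no member was called either (limma), beside 0.00644% of all genes, and 1 member, Enpep, had an unadjusted p below 0.05, as had 4.89% of all genes tested. The replicate block called Anpep between CX3CR1high and CX3CR1int cells and no member between CX3CR1int and CX3CR1low cells. The means of Enpep, Anpep and Cpd in CX3CR1int cells lay between those of the other 2 subsets. The 3 comparisons share samples, so that this order is a single pattern seen from 3 sides. Over the 6 tested members the median difference of CX3CR1high minus CX3CR1low was -0.17, against 0.005 over all genes tested.

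Other peptidases, and the peptide systems on which these enzymes act, were followed in gene lists. Of 64 other peptidase genes in 5 lists, 45 were tested and 0 were called between CX3CR1high and CX3CR1low cells (limma), with 7 at an unadjusted p below 0.05, beside 9.65% of all genes tested, and 0 called with the replicate block. None of the 45 differed by 1 log2 unit or more, 19 were higher and 26 lower in value, and their median was -0.055. Enpep and Anpep belong to a family of zinc aminopeptidases called M1, and of its 6 other tested genes 0 were called, with values from -0.285 (Rnpepl1) to 0.335 (Aopep). Erap1, which trims peptides for MHC class I in the endoplasmic reticulum, was at 7.21 in CX3CR1high and 7.20 in CX3CR1low cells.

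In the lists nearest to the other members no gene was called between CX3CR1high and CX3CR1low cells either (limma). Fap, fibroblast activation protein and the closest relative of Dpp4, was at 4.93 in CX3CR1high and 5.76 in CX3CR1low cells (-0.825, limma, adjusted p = 0.594). Prep, a cytosolic prolyl peptidase, differed by 0.435 (limma, adjusted p = 0.496). Among 7 neprilysin relatives and oligopeptidases, Ide, the insulin-degrading enzyme, differed by -0.365 and Mmel1, a close relative of neprilysin, by 0.30 (limma, adjusted p = 0.645 and 0.684). Among 6 further metallocarboxypeptidases, Cpe, which matures prohormones, differed by -0.695 and Aebp1, an inactive relative found in matrix, by -0.515 (limma, adjusted p = 0.361 and 0.456). Of 15 sheddases and membrane proteases, Bace1, the beta-secretase, was at 5.68 in CX3CR1high and 6.59 in CX3CR1low cells (-0.91, adjusted p = 0.203, limma). Adam17, which releases tumour necrosis factor from the membrane, differed by 0.47 (limma, adjusted p = 0.438).

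Substrates and receptors of these enzymes were low or did not pass. Of 6 tested genes of the angiotensin and kinin system 0 were called, and Agtr1a, Agtr2, Mas1, Kng1 and Kng2 were dim and not tested. Agtrap, a protein that binds the angiotensin receptor, differed by -0.665 and Bdkrb1, a kinin receptor, by 0.255 (limma, adjusted p = 0.452 and 0.769). Of 14 tested neuropeptide, endothelin and chemokine genes 0 were called. Ednrb, the endothelin B receptor, had log2 signals of 9.35 and 9.96 in CX3CR1high samples, 10.17 and 11.12 in CX3CR1int samples, and 10.93 and 10.99 in CX3CR1low samples. Those of CX3CR1high cells were the lowest, as for Enpep and Anpep, but the difference of -1.305 from CX3CR1low cells was not called (limma, adjusted p = 0.162). With the replicate block the adjusted p was 0.0245 (limma), beside 0.502% of all genes called lower with it. Adm, adrenomedullin, differed by -0.55 (limma, adjusted p = 0.470).

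**Figure D3:**
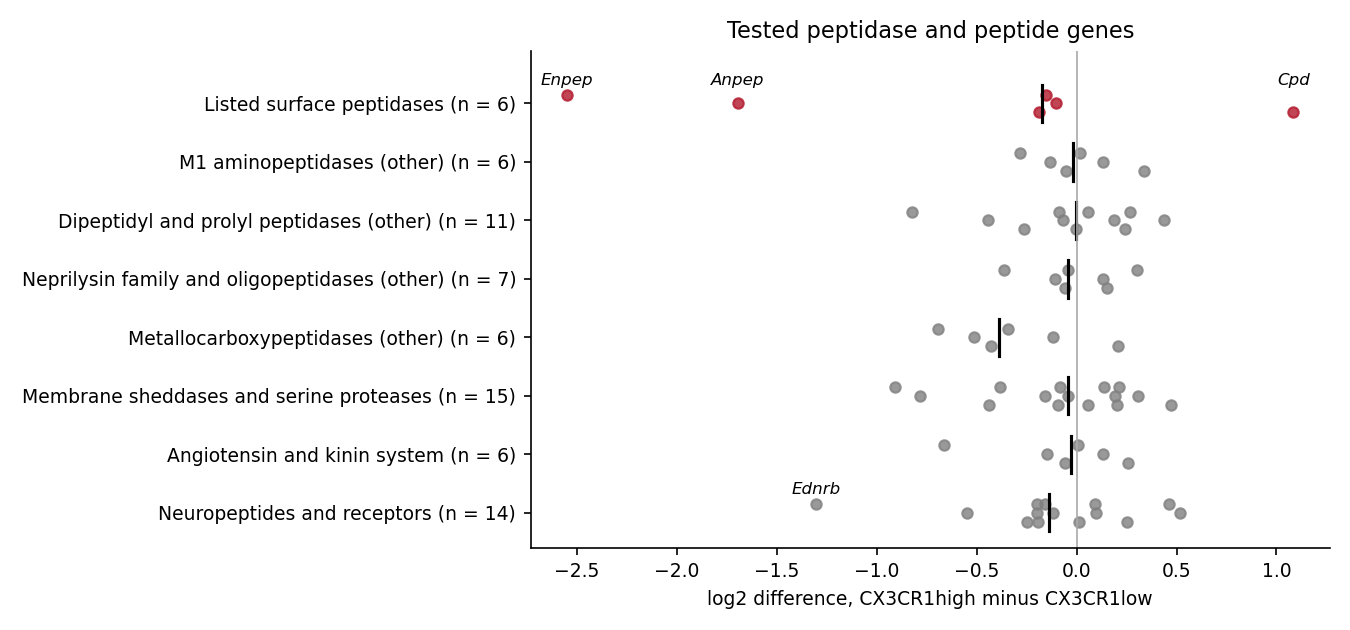
Log2 difference of CX3CR1high minus CX3CR1low for every tested gene of the peptidase and peptide system lists, 1 point a gene. Black ticks stand at list medians, and small vertical offsets only part the points. The listed surface peptidases are in red at the top. Enpep (-2.55), Anpep (-1.695) and Cpd (1.085) lie outside the span of the other peptidases, which runs from -0.91 to 0.47. The peptide system genes run from -1.305 (Ednrb) to 0.515 (Edn1).

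The genes whose values over the 6 samples were most like those of Enpep and Anpep were found by Pearson correlation among 1252 genes that varied by at least 1 log2 unit. This is a likeness over 6 points that fall into 3 subsets, given as a description. For Enpep they were Cd209g (r = 0.992), Adamtsl5 (0.991), Tbc1d7 (0.985), Cd209b (0.982) and Timp1 (0.982). Cd209g and Cd209b encode lectins related to DC-SIGN, and Timp1 an inhibitor of matrix metalloproteases. Cd209g had log2 signals of 4.66 and 5.02 in CX3CR1high, 6.97 and 7.53 in CX3CR1int, and 8.69 and 7.66 in CX3CR1low samples, and was highest in CX3CR1low sample 1, as was Enpep. For Anpep they were Retnla (r = 0.994), Gstp1 (0.994), Adgrg1 (0.993), Clec10a (0.991) and A4galt (0.989), and none was shared with Enpep. Retnla, which encodes a protein secreted in alternative activation, had log2 signals of 8.68 and 9.40 in CX3CR1high, 10.92 and 11.60 in CX3CR1int, and 11.71 and 11.82 in CX3CR1low samples. As with Anpep, its CX3CR1low samples were close to each other and its CX3CR1high samples apart.

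**Figure D4:**
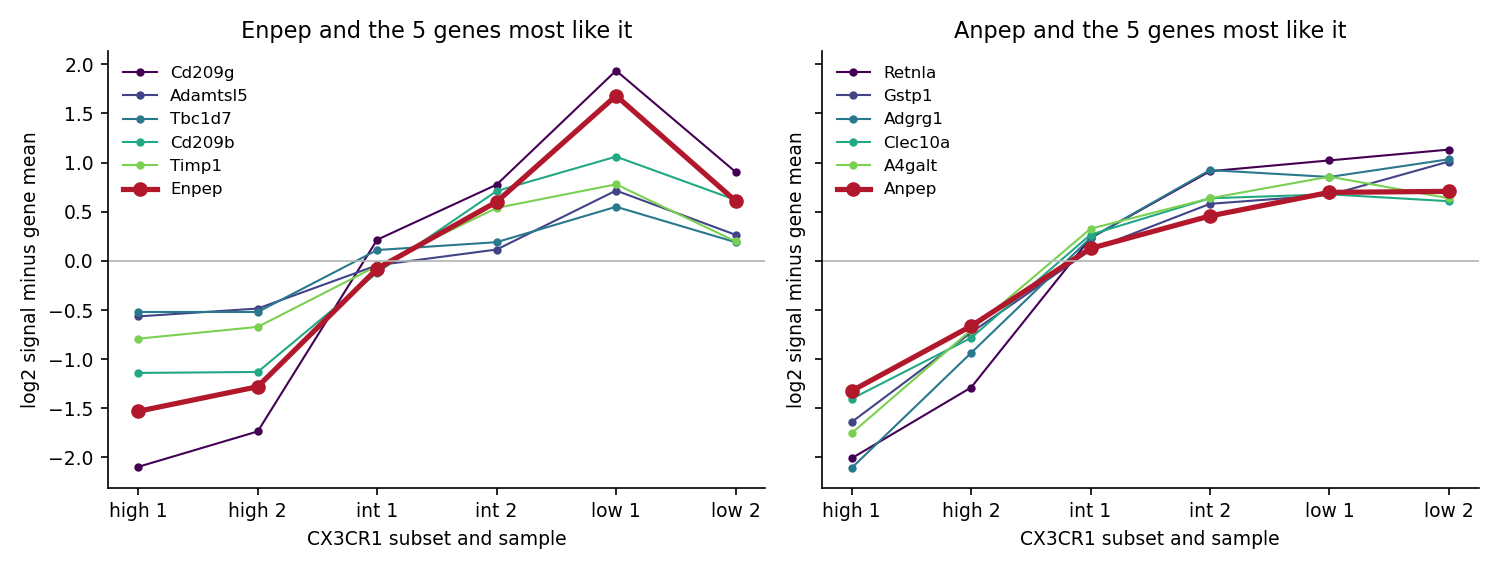
Log2 signal minus the mean of each gene over the 6 samples, for Enpep (left, red) and Anpep (right, red) with the 5 genes most like each by Pearson correlation. Lines join samples only to guide the eye. Genes like Enpep peak in CX3CR1low sample 1, and genes like Anpep are lowest in CX3CR1high sample 1.

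Aminopeptidases are also made by other skin cells, and markers of some of these differed between the subsets in the same direction as Enpep and Anpep. The mean log2 signal of 12 fibroblast markers was 6.51 and 6.48 in CX3CR1high, 6.74 and 6.89 in CX3CR1int, and 7.06 and 7.65 in CX3CR1low samples. Of these, 11 were lower in value in CX3CR1high than in CX3CR1low cells, and 0 were called (limma). With the replicate block 5 were called lower, beside 0.502% of all genes tested. The brightest, Col1a2 and Dcn, differed by -1.115 and -1.24. Of 11 keratinocyte markers, with means of 6.36 and 6.34 in CX3CR1high, 6.33 and 6.55 in CX3CR1int, and 6.76 and 7.08 in CX3CR1low samples, 10 were lower in value in CX3CR1high than in CX3CR1low cells. Among them only the keratin gene Krt10 was called lower (-1.46, limma, adjusted p = 0.0439), beside 0.187% of all genes tested. Krt14 differed by -0.585.

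Mast cell markers, 10 in number, averaged 4.34 and 4.30 in CX3CR1high, 4.98 and 4.96 in CX3CR1int, and 5.43 and 5.21 in CX3CR1low samples. Of the 7 tested, Cpa3, Mcpt4 and Cma1 fell in CX3CR1high against CX3CR1low cells (limma, adjusted p = 0.00512, 0.0168 and 0.0130). In this comparison 0.187% of all genes tested were called lower. Cpa3, the carboxypeptidase of mast cell granules, was at 3.82 and 4.32 in CX3CR1high, 6.41 and 6.51 in CX3CR1int, and 7.80 and 7.08 in CX3CR1low samples. The mast cell markers Tpsab1, Ms4a2 and Fcer1a were dim. The 6 samples stood in the same order for Cpa3 as for Enpep and the lectin gene Cd209g, but not for Mcpt4 or Cma1. In CX3CR1high samples 1 and 2 Mcpt4 was at 5.72 and 5.47 and Cma1 at 4.63 and 4.53, against 5.06 and 5.31 for Enpep. Pericytes express both aminopeptidases, and 12 pericyte and smooth muscle markers averaged 5.21 and 5.22 in CX3CR1high, 5.26 and 5.31 in CX3CR1int, and 5.19 and 5.53 in CX3CR1low samples. Of the 11 tested, 8 were lower in value in CX3CR1high than in CX3CR1low cells (median -0.15) and 0 were called, with or without the replicate block. The 2 brightest, Rgs5 and Cspg4, differed by -0.94 and 0.745. Endothelial markers, 10 in number, averaged 4.97 and 4.73 in CX3CR1high, 4.79 and 4.95 in CX3CR1int, and 5.01 and 5.21 in CX3CR1low samples, and all 7 tested were lower in value in CX3CR1high than in CX3CR1low cells (median -0.195). None of the 7 was called, with or without the replicate block, and the brightest, Cdh5 and Pecam1, differed by -1.27 and -0.05. The part of these other cells in the values of Enpep and Anpep was not tested.

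**Figure D5:**
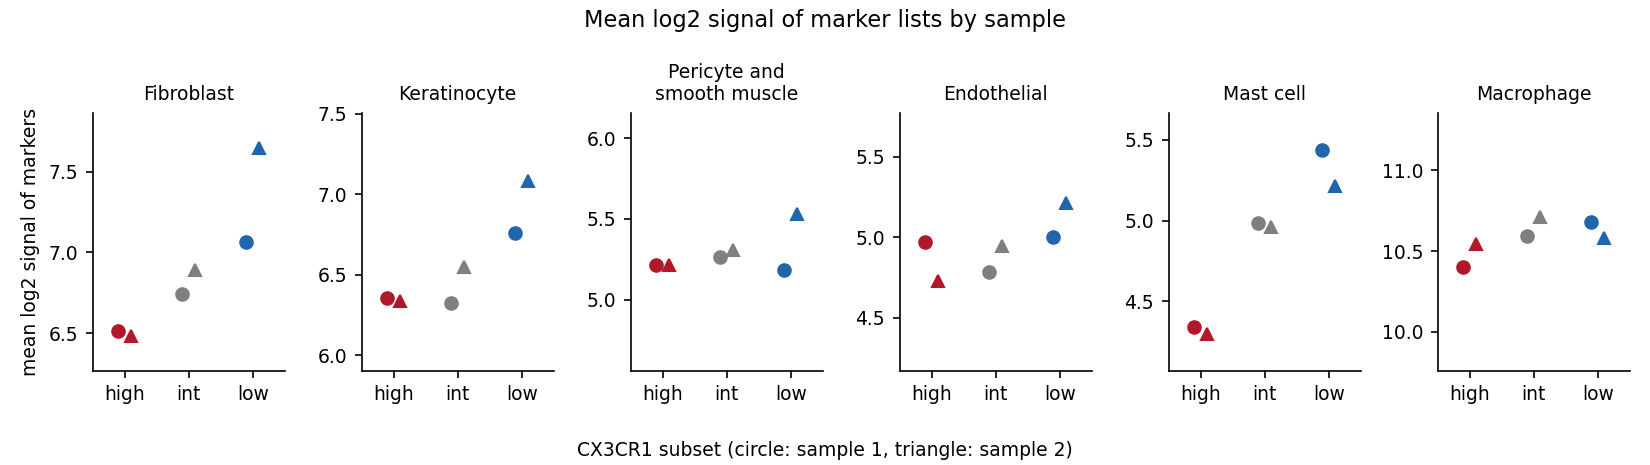
Mean log2 signal of 6 marker lists in each sample, with circles for sample 1 and triangles for sample 2, each panel spanning the same number of log2 units. Fibroblast, keratinocyte and mast cell means are highest in CX3CR1low samples, and macrophage means lie between 10.4 and 10.7 in all samples.

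Markers of other immune cells differed in both directions. Tested were 11 dendritic and Langerhans cell markers, 8 of 9 T and innate lymphoid cell markers and 7 of 10 neutrophil markers. None was called between CX3CR1high and CX3CR1low cells (limma), and the list medians were 0.03, -0.08 and -0.07. Their 2 brightest genes were Sirpa and Irf8 for dendritic cells, which differed by 0.165 and -0.405, Il7r and Thy1 (also on the fibroblast list) for lymphoid cells, by 0.77 and -1.27, and Csf3r and Cxcr2 for neutrophils, by -0.335 and 0.415. Cd207, the langerin gene of Langerhans cells, differed by 1.22 (limma, adjusted p = 0.181). Ccr7, the receptor of migrating dendritic cells, differed by 1.315. It was called with the replicate block only (limma, adjusted p = 0.0239, against 0.0510 without it), beside 0.489% of all genes called higher with the block. Of 8 tested monocyte markers none was called in this comparison, 5 were higher and 3 lower in value, and the brightest, Nr4a1 and Fn1, differed by 0.08 and -0.655. Ccr2, the receptor that brings monocytes into tissue, differed by 1.235 (limma, adjusted p = 0.401). Ly6c2, a surface antigen of young monocytes, was at 3.36 and 4.92 in CX3CR1high, 7.35 and 7.90 in CX3CR1int, and 6.48 and 7.11 in CX3CR1low samples. Its CX3CR1high samples lay below the other 4, as did those of Enpep and Anpep. Ly6c2 differed between CX3CR1high and CX3CR1low cells by -2.655 (limma, adjusted p = 0.0586, or 0.00484 with the replicate block). With that block 0.502% of all genes tested were called lower. It was called lower in CX3CR1high than in CX3CR1int cells (-3.485, limma, adjusted p = 0.0421). The part of these other immune cells in the values of the peptidase genes was not tested.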

How the data were processed

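RNA of 6 sorted samples, 2 for each of 3 subsets, was amplified with a whole-transcriptome kit and hybridised to Affymetrix arrays, per the labels' protocols. Per the submitters' processing notes the tools were RMA and Affymetrix Expression Console 1.4. The deposited log2 signals were used as given. The number of arrays limits the precision. Of 34390 probe sets, 23521 carried 1 gene symbol in the platform annotation, 1814 several and 9055 none. The brightest of a gene stood for it, and 6651 of 22180 genes were left out as dim.

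Subset means were fitted to all 6 samples in R 4.3.3 with limma 3.58.1 (intensity trend, two-sided, Benjamini-Hochberg over 15529 genes), with 3 residual and 5.77 prior degrees of freedom. The fit was also run on simulated data in which all samples varied independently, without differences shared by samples of the same number. That run is therefore no check on such differences. The members, the 17 gene lists and the tests were chosen with earlier results of these data known. Named were all members, the called genes of a list or otherwise the 2 of smallest p, the 5 genes most like Enpep and Anpep with clone and small RNA symbols passed over, and the 2 brightest and any called markers of each other cell type. The motifs and the choice of promoters, the Erap1 and Cd68 values and the other markers named were chosen after seeing values.

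Alternatives changed the filter, variance prior, probe sets, scaling and samples, or added a replicate block. Same-numbered samples of different subsets deviated from the subset means together across genes, at correlations of 0.178, 0.136 and 0.146 (0.157, 0.111 and 0.124 without X and Y genes). Xist was at 7.97, 7.61 and 7.39 in samples 1 and at 11.39, 10.99 and 11.24 in samples 2. Eif2s3y, a Y-linked gene, was at 7.76, 7.86 and 8.27 in samples 1 and at 3.57, 3.72 and 2.99 in samples 2. On these values the numbers were taken to pair samples. Samples 1 and 2 of a subset thus differed in sex make-up as well as in pool, and sex and pool cannot be told apart. Pools and litters are the units. The reported fit had no block, since the labels do not say that the number pairs samples. Its p-values therefore measure the spread between pools, including differences that same-numbered samples share across subsets. The replicate block removes those shared differences, and with it Cpd (CX3CR1high minus CX3CR1low) and Anpep (CX3CR1high minus CX3CR1int) were also called.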

Additional observations from a re-analysis of the deposited data

How the results depend on the processing

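Over all alternatives, Enpep (-3.085 to -2.015) and Anpep (-2.025 to -1.365) kept their direction between CX3CR1high and CX3CR1low cells, as did Cpd (0.95 to 1.22). Of 282 recomputed values of the 6 tested members, 245 stayed on their side of the threshold in the same direction, 8 lost a call, 6 gained a call and 7 changed sign. The other 16 are those of Ace between CX3CR1high and CX3CR1int cells, which stayed uncalled at -0.15 to 0.15 around a difference of 0 that has no direction. Members called between CX3CR1high and CX3CR1low cells numbered 2, and 0 with each probe set on its own (24077 tested, limma, Enpep adjusted p = 0.0771, Anpep 0.0634). Leaving out any single CX3CR1high or CX3CR1low sample also ended the call of Enpep, of Anpep or of both. Cpd was called with the block, with genes above the median signal (adjusted p = 0.0382), a robust prior (0.0416), the mean of probe sets (0.0480) and median centring (0.0478). With the replicate block 1 member, Anpep, was called between CX3CR1high and CX3CR1int cells, against 0 without it, and besides that and Cpd it changed no member's call.

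Genes called between CX3CR1high and CX3CR1low cells numbered 62, against 26 without the filter, 154 with the replicate block, 18 with each probe set on its own, 39 with only these 2 subsets and 0 to 39 with a sample left out (0 without CX3CR1high sample 1). Between CX3CR1high and CX3CR1int cells they numbered 22, against 0 without the filter or with each probe set on its own, 4 without the intensity trend, 47 with the replicate block, 1 with cyclic loess, 14 with only these 2 subsets and 0 to 17 with a sample left out. Between CX3CR1int and CX3CR1low cells the count of 1, the RNA helicase gene Ddx5, became 0 without the filter, without the trend, with the replicate block, with each probe set on its own, with either scaling, with only these 2 subsets and in all 6 fits that left out a sample. The sign changes all came from leaving out a sample and touched uncalled genes. Between CX3CR1high and CX3CR1low cells Mme then ran from -0.45 to 0.14, Ace from -0.27 to 0.06 (0.045 without CX3CR1high sample 2) and Cpm from -0.39 to 0.01. Between CX3CR1high and CX3CR1int cells Cpm ran from -0.15 to 0.33, and between CX3CR1int and CX3CR1low cells Mme from -0.15 to 0.45 and Ace from -0.27 to 0.06. Fits without a sample leave fewer degrees of freedom, and a lone sample is assumed to vary like the others. The signal of Dpp4 is too dim to limit its change.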
